A study of Mus musculus with 30 samples.

Results

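The 9 genes described here are Fos, Fosb, Jun, Junb, Jund, Atf3, Egr1, Ier2 and Dusp1, taken as a named set of immediate early and AP-1 genes among 12593 genes measured on the arrays. They were followed at every array probe annotated to them, 11 of 41174 probes, and at every deposited ChIP-seq peak within 50 kb of their probes, 598 of 323966 peaks over 24 lists. Jund carries the older symbol Jund1 in the array design and was matched by its accession, and the other 8 genes carry their own symbols. The set was defined by gene names and not by a cut on the measured values, but it was chosen with earlier results of these data known. All 9 members passed the filter on dim probes.

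The mice were of strain C57BL/6. RNA was measured on two-colour arrays in untreated cells of 3 genotypes with 2 samples each, E2A-/- (pre-pro-B), EBF-/- (also pre-pro-B) and RAG1-/- (pro-B). Both pre-pro-B cultures grew on the S17 stromal line with IL7, SCF and FLT3 ligand. RAG1-/- cells were B220-enriched bone marrow grown in IL-7 plus SCF over 10 d, so against them genotype and culture cannot be told apart. ChIP-seq was made in EBF-/- and RAG1-/- cells without a transgene, and in E2A-/- pre-pro-B cells and A12 cells, an E2A-/- double-positive T cell line, after infection with a retrovirus. The virus carried E47-ER, full-length E2A joined to the ligand-binding part of the estrogen receptor, or bHLH-ER, a truncated form without the activation domains. Tamoxifen at 1 µM was added after 21 h of culture, for 1 h or 6 h with E47-ER in E2A-/- cells and for 6 h elsewhere, and infected cells were enriched by a human CD25 tag. The last list came from a control library without antibody in wild-type lymphoid cells. Ages are not given in the sources used here, and no label ties the 2 samples of a group to different animals or different cultures, so p-values measure only the spread between these samples, which may be technical.

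Immediate early genes are switched on within minutes of a stimulus without new protein synthesis, mainly through MAP kinases acting on transcription factors such as SRF, ternary complex factors and CREB. Fos and Jun family proteins pair through leucine zippers to form AP-1, which binds DNA and drives a later wave of genes, while phosphatases such as DUSP1 shut the kinases down again. In lymphoid progenitors these genes respond to cytokine and antigen receptor signals, and handling or dissociation of cells can induce them as well.

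Promoter sequence is described here for 7 of the 9 members (RefSeq, build GRCm38.p6), and Ier2 and Egr1 are named only. The stretches shown are the 250 bases before the annotated start of the 5 members whose RNA changes or nearby E2A and FOXO1 peaks are described most closely, on the strand of the gene. Capitals mark CANNTG, the E-box that E2A proteins bind, TGACG or its complement, the core of the CREB and ATF site, and GTAAACA or its complement, a site of FOXO proteins. The positions are chr12:85473640-85473889 (plus strand) for Fos, chr4:95052223-95052472 (minus) for Jun, chr8:84978749-84978998 (minus) for Junb, chr1:191183334-191183583 (minus) for Atf3 and chr17:26508473-26508722 (minus) for Dusp1.
Fos: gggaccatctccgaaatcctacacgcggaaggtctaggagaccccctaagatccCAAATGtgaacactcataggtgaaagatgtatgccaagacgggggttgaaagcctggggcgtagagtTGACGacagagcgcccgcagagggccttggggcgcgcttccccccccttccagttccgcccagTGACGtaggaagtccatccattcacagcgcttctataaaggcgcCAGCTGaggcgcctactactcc
Jun: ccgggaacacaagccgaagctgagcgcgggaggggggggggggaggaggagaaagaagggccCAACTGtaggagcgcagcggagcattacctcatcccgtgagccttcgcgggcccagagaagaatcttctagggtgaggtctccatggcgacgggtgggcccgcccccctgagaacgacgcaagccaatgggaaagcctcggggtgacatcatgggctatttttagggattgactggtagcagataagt
Junb: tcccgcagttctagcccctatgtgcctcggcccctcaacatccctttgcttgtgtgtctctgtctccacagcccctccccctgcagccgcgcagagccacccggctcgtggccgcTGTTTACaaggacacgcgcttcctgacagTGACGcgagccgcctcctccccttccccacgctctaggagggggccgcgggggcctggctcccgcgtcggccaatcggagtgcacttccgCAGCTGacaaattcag
Atf3: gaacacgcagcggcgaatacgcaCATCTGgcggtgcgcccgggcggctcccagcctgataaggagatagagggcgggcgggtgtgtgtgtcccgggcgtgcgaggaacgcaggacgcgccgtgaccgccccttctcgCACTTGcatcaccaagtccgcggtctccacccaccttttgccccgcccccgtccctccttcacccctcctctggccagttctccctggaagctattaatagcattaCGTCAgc
Dusp1: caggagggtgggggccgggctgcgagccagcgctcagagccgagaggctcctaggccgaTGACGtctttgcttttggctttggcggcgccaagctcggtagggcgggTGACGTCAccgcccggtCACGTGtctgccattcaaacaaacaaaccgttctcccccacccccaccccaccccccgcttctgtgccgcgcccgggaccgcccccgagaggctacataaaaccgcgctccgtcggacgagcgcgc

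Each of the 7 promoters held at least 1 CANNTG, as did 66.2% of 32536 promoters of the same length. TGACG on either strand was present in 5 of the 7, namely Fos, Fosb, Junb, Atf3 and Dusp1, against 17.9% of all promoters. Fos held it 66 and 129 bases before the start and Atf3 at 7 bases, and Dusp1 held the full palindrome TGACGTCA, present in 1.56% of promoters, 143 bases before the start. GTAAACA on either strand was found in Junb alone, 135 bases before the start (3.17% of all promoters), and the Egr site GCGNGGGCG in Fosb alone (4.74%). Neither TGANTCA (6.73%) nor a CArG box (1.48%) was found in these 7 windows. Bases farther upstream, variant spellings of either site and the promoters of Egr1 and Ier2 were not covered. The members were therefore not shown to lack sites of either kind. A match of letters is a description only. The peaks below are in build mm8 and were not placed on these sequences.

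Signal on the arrays is given as log2 intensity, quantile normalized over the 6 samples, so that 1 unit is a 2-fold change, and values of different genes come from different probes and are not compared. Between 40.9% and 61.8% of spots were well above background per sample. Every member probe was well above background and unsaturated in all 6 samples. The E2A-/- samples stood apart from each other in pro-B and pre-B genes, a list of 8. Its log2 summed intensity was 15.20 in E2A-/- replicate 1 and 11.66 in E2A-/- replicate 2. It was 11.51 in both EBF-/- samples, and 20.10 and 19.87 in RAG1-/-. E2A-/- replicate 1 shared its array with RAG1-/- replicate 1, and the part of that in the value of 15.20 was not tested. All 8 of those genes rose in RAG1-/- against EBF-/- cells, where 21.3% of all genes were called higher. Log2 changes carry the standard error (SE, n = 2 per group) of 1 limma fit to the 6 samples, and Benjamini-Hochberg adjusted p-values run over all 12593 genes.

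Of the 9 members, 8 were lower in RAG1-/- pro-B cells than in E2A-/- pre-pro-B cells and none was higher, where 23.2% and 23.0% of all genes were called lower and higher. Against EBF-/- cells, 6 were lower and 1 was higher in RAG1-/- cells (22.8% and 21.3% of all genes). In EBF-/- against E2A-/- cells, 4 were lower and 1 was higher (11.6% and 12.8%). The median log2 change of the members was -1.14, -0.58 and -0.48 in the same order, and that of all genes 0.03, 0.04 and -0.00. The comparisons share samples, so their counts are not independent. In RNA from bulk cultures, fewer cells of a type and less RNA per cell cannot be told apart. Without E2A-/- replicate 2, 4 members were lower in RAG1-/- than in E2A-/- cells, and without EBF-/- replicate 2, 3 were lower in RAG1-/- than in EBF-/- cells. Over all genes these fits called 1648 and 1322 lower, against 2917 and 2866 with all samples. In EBF-/- against E2A-/- cells, 1 was lower without E2A-/- replicate 1, without E2A-/- replicate 2 or without EBF-/- replicate 2, and 2 were lower without EBF-/- replicate 1. Of all genes, 514, 556, 220 and 306 were called lower in those fits, against 1461 with all samples.

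**Figure D1:**
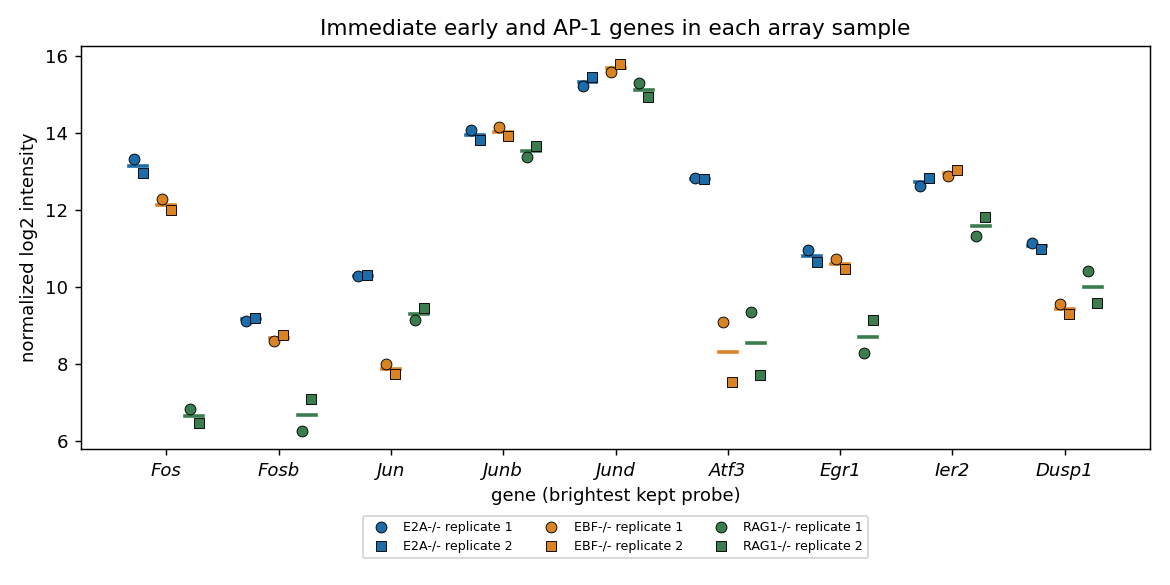
Normalized log2 intensity (y axis) of each gene's brightest kept probe (x axis) in the 6 array samples; circles are replicate 1, squares replicate 2 and bars the mean of the 2. The RAG1-/- samples of Fos sit at 6.82 and 6.47, below the 4 pre-pro-B samples, whereas those of Jun lie between the other groups.

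Fos, the founding partner of Jun in AP-1, read 13.32 and 12.97 (E2A-/-), 12.27 and 12.01 (EBF-/-), and 6.82 and 6.47 (RAG1-/-). The 3 groups did not overlap, and RAG1-/- lay far below both others. Fos fell by 5.49 on the log2 scale in RAG1-/- against EBF-/- cells (SE 0.20, 44.9-fold, adjusted p = 0.000441). Against E2A-/- cells it fell by 6.50 (SE 0.20, 90.6-fold, adjusted p = 0.00031). With normexp background correction and loess in place of the processed signals, the same changes were -4.44 and -5.44 (adjusted p = 7.85e-05 and 4.84e-05), so the folds depend on the background correction. The probe was printed at 10 spots per array, with a technical SD over spots of at most 0.10 in each sample. Fos was also 2.02-fold lower in EBF-/- than in E2A-/- cells, a log2 change of -1.01 (SE 0.20, adjusted p = 0.0305). That call was lost when any of the 4 pre-pro-B samples was left out (adjusted p from 0.0731 to 0.205) and without the filter on dim probes (0.0698).

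Fosb, a Fos relative with the same partners, read 9.13 and 9.19 (E2A-/-), 8.60 and 8.74 (EBF-/-), and 6.26 and 7.08 (RAG1-/-). The RAG1-/- pair lay below the other 4 samples and was the most spread. Fosb fell by 2.01 in RAG1-/- against EBF-/- cells (SE 0.30, 4.02-fold, adjusted p = 0.00776) and by 2.49 against E2A-/- cells (SE 0.30, 5.60-fold, adjusted p = 0.00407). The first of these calls was lost without EBF-/- replicate 2 (adjusted p = 0.0604). With normexp and loess the changes were smaller, -1.25 and -1.69 (adjusted p = 0.00271 and 0.000864). Between EBF-/- and E2A-/- cells the log2 change was -0.48 (SE 0.30, adjusted p = 0.316), and it passed when either RAG1-/- sample was left out (adjusted p = 0.0422 and 0.0495).

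Jun, the most strongly activating member of its family, took another order. It read 10.29 and 10.30 (E2A-/-), 7.99 and 7.75 (EBF-/-), and 9.15 and 9.45 (RAG1-/-), with no overlap between groups. EBF-/- cells were thus lowest. Jun fell by 2.42 in EBF-/- against E2A-/- cells (SE 0.15, 5.36-fold, adjusted p = 0.00278) and was 2.69-fold higher in RAG1-/- than in EBF-/- cells, a log2 change of 1.43 (SE 0.15, adjusted p = 0.0031). It was the 1 member called higher in that comparison, while Fos, its partner, was called lower. Jun was 1.99-fold lower in RAG1-/- than in E2A-/- cells (adjusted p = 0.00742), a call lost without E2A-/- replicate 2 (adjusted p = 0.0725).

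Junb and Jund, weaker activators that can oppose Jun at some promoters, varied little. Junb read 14.07 and 13.81 (E2A-/-), 14.17 and 13.91 (EBF-/-), and 13.39 and 13.67 (RAG1-/-). The RAG1-/- pair was lowest and the pre-pro-B groups overlapped. Junb fell by 0.51 in RAG1-/- against EBF-/- cells (SE 0.07, 1.43-fold, adjusted p = 0.00621) and by 0.41 against E2A-/- cells (SE 0.07, adjusted p = 0.0107). The first call was lost without either EBF-/- sample (adjusted p = 0.082 and 0.0822), and the second without any 1 of the 4 pre-pro-B samples (adjusted p from 0.0509 to 0.103) and without the dye term (0.0744). A second Junb probe changed by -0.56 (SE 0.12) and -0.24 (SE 0.12) in these comparisons, the latter with an adjusted p of 0.20. Jund read 15.22 and 15.45 (E2A-/-), 15.60 and 15.79 (EBF-/-), and 15.29 and 14.93 (RAG1-/-), so that EBF-/- was highest and the other groups overlapped. Jund was 1.28-fold higher in EBF-/- than in E2A-/- cells (log2 change 0.36, SE 0.08, adjusted p = 0.0431), a call lost when any of those 4 samples was left out (adjusted p from 0.184 to 0.32) and under either other scaling (0.0687 and 0.0663). It fell by 0.58 in RAG1-/- against EBF-/- cells (SE 0.08, adjusted p = 0.00692), a call lost when either EBF-/- sample was left out (adjusted p = 0.0815 and 0.0539).

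Atf3, a stress-induced factor of the ATF and CREB family that can pair with Jun proteins, separated E2A-/- cells from the rest. It read 12.82 and 12.81 (E2A-/-), 9.09 and 7.53 (EBF-/-), and 9.36 and 7.71 (RAG1-/-). The EBF-/- and RAG1-/- samples overlapped, and within each of those groups the samples were more than 1 log2 unit apart. Atf3 fell by 4.53 in EBF-/- against E2A-/- cells (SE 0.77, 23.1-fold, adjusted p = 0.0203) and by 4.30 in RAG1-/- against E2A-/- cells (SE 0.77, 19.7-fold, adjusted p = 0.0123). Leaving out replicate 1 or 2 of EBF-/- gave -5.70 or -3.33 for the first change, and leaving out replicate 1 or 2 of RAG1-/- gave -5.51 or -3.08 for the second. The EBF-/- call missed the threshold, at adjusted p from 0.0689 to 0.0736, without EBF-/- replicate 2 or without either E2A-/- sample, and stood at 0.0557 without the filter on dim probes. RAG1-/- and EBF-/- cells differed by a log2 change of 0.22 (SE 0.77, adjusted p = 0.831), too wide an error to show that they are alike.

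Egr1, a zinc finger factor induced through MAP kinases and SRF, read 10.95 and 10.64 (E2A-/-), 10.74 and 10.46 (EBF-/-), and 8.27 and 9.15 (RAG1-/-). The pre-pro-B groups overlapped and both RAG1-/- samples lay below them. Egr1 fell by 1.89 against EBF-/- cells (SE 0.19, 3.71-fold, adjusted p = 0.00283) and by 2.08 against E2A-/- cells (SE 0.19, 4.23-fold, adjusted p = 0.00201). Both calls held under every alternative run. Egr1 in EBF-/- against E2A-/- cells changed by -0.19 (SE 0.19, adjusted p = 0.534).

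Ier2, an immediate early nuclear protein, read 12.61 and 12.82 (E2A-/-), 12.89 and 13.04 (EBF-/-), and 11.34 and 11.81 (RAG1-/-). The RAG1-/- pair was lowest. Ier2 fell by 1.39 against EBF-/- cells (SE 0.19, 2.62-fold, adjusted p = 0.00656) and by 1.14 against E2A-/- cells (SE 0.20, 2.20-fold, adjusted p = 0.0108), the latter lost without E2A-/- replicate 2 (adjusted p = 0.0562). The second Ier2 probe did not show this fall. In E2A-/- replicate 2 it read 7.31, near the lowest well-measured signal of that sample (6.86). It lay between 6.98 and 7.41 in all 6 samples, and its change in RAG1-/- against EBF-/- cells was 0.33 (SE 0.20, adjusted p = 0.262), so the fall of Ier2 rests on 1 of its 2 probes.

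Dusp1, the nuclear phosphatase that switches off MAP kinases, read 11.14 and 10.98 (E2A-/-), 9.56 and 9.29 (EBF-/-), and 10.41 and 9.60 (RAG1-/-). As for Jun, the groups did not overlap and EBF-/- was lowest, but the RAG1-/- samples were spread. Dusp1 fell by 1.65 in EBF-/- against E2A-/- cells (SE 0.30, 3.13-fold, adjusted p = 0.0241), a call lost when any of those 4 samples was left out (adjusted p from 0.0618 to 0.15). It fell by 1.06 in RAG1-/- against E2A-/- cells (SE 0.30, adjusted p = 0.0449), a call lost when any sample but the RAG1-/- ones was left out (adjusted p from 0.0546 to 0.171). It was lost as well without the filter on dim probes (0.0997), with every kept probe tested (0.0503) and with the crossed replicate block (0.0516). In RAG1-/- against EBF-/- cells the change was 0.59 (SE 0.30, adjusted p = 0.18). It became 1.10 without RAG1-/- replicate 2 (adjusted p = 0.00267) and 0.07 without RAG1-/- replicate 1 (adjusted p = 0.647).

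**Figure D2:**
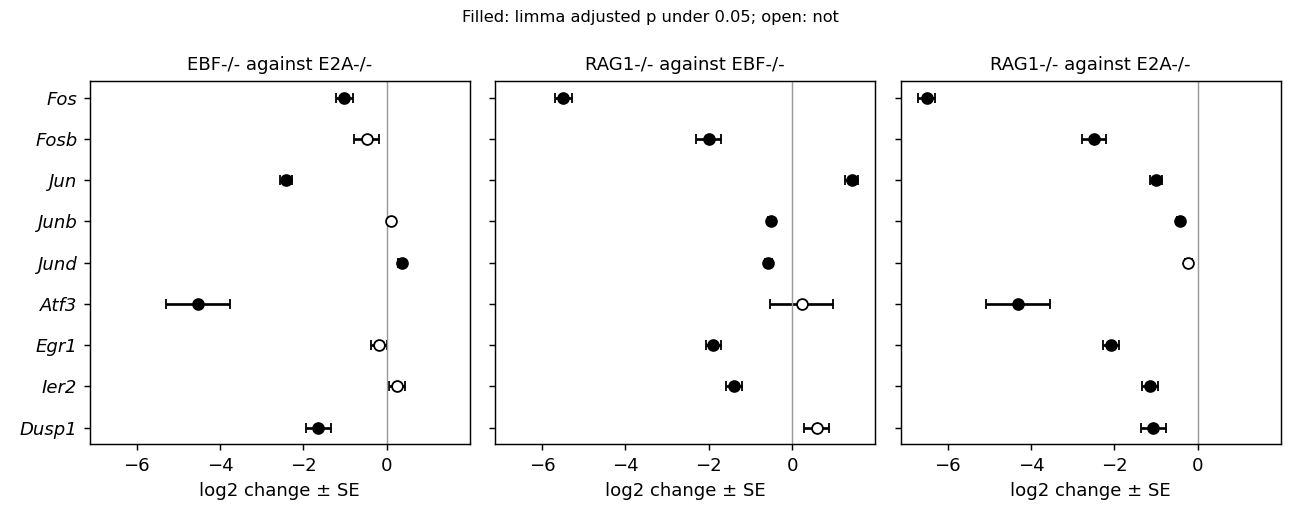
Log2 change (x axis, first group minus second, bars are SE of the limma fit, n = 2 per group) of each gene (y axis) in the 3 comparisons; filled points passed an adjusted p of 0.05. Fos has the lowest value in both comparisons with RAG1-/-, and Atf3 in EBF-/- against E2A-/-.

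By the difference of 6-sample profiles, each centred on its own mean, Fosb and Egr1 were the members nearest to Fos, at root mean square differences of 1.82 and 1.95 log2 units, with 511 and 620 as their ranks among 12592 genes. Jun was the member farthest from Fos (2.99). The 4 genes outside the set nearest to Fos were C030034L19Rik (0.16), Flt3 (0.24), Ier3 (0.28) and Grk3 (0.32). C030034L19Rik read 3.23 and 3.06 in RAG1-/- replicates 1 and 2, where the dimmest well-measured signals were 4.71 and 4.74. Grk3 read 4.86 in RAG1-/- replicate 1 and 4.64, also too dim, in replicate 2. The distances of C030034L19Rik and Grk3 from Fos thus rest in part on poorly measured RAG1-/- values. Flt3, the receptor of a cytokine present in the pre-pro-B cultures only, read 13.50 and 13.68 (E2A-/-), 12.50 and 12.86 (EBF-/-), and 7.30 and 6.92 (RAG1-/-).

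Among 14 other AP-1 family genes, 11 were measured, of which 4 were lower and none higher in RAG1-/- than in E2A-/- cells. Against EBF-/- cells 4 were lower and 1 higher, and in EBF-/- against E2A-/- cells 2 were lower and none higher. The shares of all genes in the same order were 23.2%, 22.8% and 11.6% lower, and 23.0%, 21.3% and 12.8% higher. Fosl2, another Fos relative, was not well above background in RAG1-/- cells and at least 6.98-fold lower there than in EBF-/- and at least 7.47-fold lower than in E2A-/- cells (adjusted p = 0.0018 and 0.00148). With normexp and loess its log2 changes were -1.37 and -1.39. These are smaller than the bounds above, which hold for the processed signals only. Jdp2, which pairs with Jun and represses, fell by 1.67 in EBF-/- against E2A-/- cells (SE 0.11) and by 0.60 from EBF-/- to RAG1-/- cells (SE 0.11, adjusted p = 0.0132), the latter lost without either EBF-/- sample. Maff, a small Maf protein, fell by 1.35 in RAG1-/- against EBF-/- cells (SE 0.16), a call also lost without either EBF-/- sample (adjusted p = 0.0529 and 0.0512).

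The 33 measured genes of the wider immediate early list moved both ways. In RAG1-/- against EBF-/- cells 13 were higher and 13 lower, in RAG1-/- against E2A-/- cells 9 and 15, and in EBF-/- against E2A-/- cells 5 and 10. Their median changes were -0.08, -0.37 and -0.35. The shares of all genes in that order were 21.3%, 23.0% and 12.8% higher, and 22.8%, 23.2% and 11.6% lower. Ier3, an early gene linked to cell survival, fell by 5.06 in RAG1-/- against EBF-/- cells (SE 0.15, 33.4-fold). Sgk1, a kinase induced by serum and glucocorticoids, was 18.2-fold higher there (log2 change 4.18, SE 0.14, adjusted p = 0.000427). Dusp6, the cytoplasmic phosphatase of ERK, shared the order of Jun, with a log2 change of -4.24 in EBF-/- against E2A-/- cells (SE 0.21) and 2.79 in RAG1-/- against EBF-/- cells (SE 0.21). Plk2, an early kinase, was not well above background in E2A-/- cells and was at least 17.5-fold higher in RAG1-/- cells. With normexp and loess the log2 changes were -2.99 for Ier3, 3.56 for Sgk1 and 3.07 for Plk2 in the same comparisons. The value for Plk2 is below the bound of 17.5-fold, which holds for the processed signals only.

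Of 23 measured genes of upstream signalling, 2 were higher and 3 lower in EBF-/- against E2A-/- cells (12.8% and 11.6% of all genes). In RAG1-/- against EBF-/- cells these were 4 and 5 (21.3% and 22.8%), and in RAG1-/- against E2A-/- cells 3 and 6 (23.0% and 23.2%). Elk3, a ternary complex factor that binds with SRF at immediate early promoters, fell by 2.01 from EBF-/- to RAG1-/- cells (SE 0.15, adjusted p = 0.0015). Rps6ka1, a ribosomal S6 kinase downstream of ERK, fell by 1.83 (SE 0.12), and Elk4, a relative of Elk3, was 2.23-fold higher (log2 change 1.16, SE 0.13).

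Markers of other cells differed between the same groups. Of all genes, 23.2%, 22.8% and 11.6% were lower in RAG1-/- against E2A-/-, RAG1-/- against EBF-/- and EBF-/- against E2A-/- cells. The shares higher were 23.0%, 21.3% and 12.8%, and the counts below are to be read beside both. Of 10 measured myeloid genes of 12 listed, 8 were lower in RAG1-/- than in E2A-/- cells, 6 lower than in EBF-/- cells and 4 lower in EBF-/- than in E2A-/- cells, with none higher. Their log2 summed intensity was 17.60 and 17.63 (E2A-/-), 16.75 and 16.78 (EBF-/-), and 12.78 and 14.85 (RAG1-/-). The groups stood in the same order as for Fos, but not as for Jun or Dusp1. Within RAG1-/- cells, replicate 2 was the higher in this sum and the lower in Fos (6.47 against 6.82). In every sample 9 or 10 of these myeloid genes were well above background. Csf1r, the macrophage growth factor receptor, fell by 5.70 in EBF-/- against E2A-/- cells (SE 0.83, from -7.17 to -4.21 when 1 sample was left out), and the log2 change of Tyrobp, a myeloid and NK adaptor, was -4.87 in RAG1-/- against EBF-/- cells (SE 0.11). Of 8 measured T and NK genes of 10, 5 were higher in EBF-/- than in E2A-/- cells and 6 lower in RAG1-/- than in EBF-/- cells, with log2 sums of 15.76 and 15.79 in EBF-/- samples against 13.45 to 13.76 elsewhere. Of 10 stromal genes 4 were measured, with sums of 12.98 and 12.79 in EBF-/- samples and 8.72 to 9.08 elsewhere. That sum was carried by Pdgfrb, the 1 stromal gene called higher in EBF-/- than in E2A-/- cells, while the median change of the 4 was -0.11 and at most 2 of them were well above background in either EBF-/- sample. Of 6 mast cell genes 2 were measured. Of 10 measured heat shock genes, 6 were lower and 2 higher in RAG1-/- against E2A-/- cells, none higher and 1 lower in RAG1-/- against EBF-/- cells, and 4 lower and 2 higher in EBF-/- against E2A-/- cells. The part of these cells or of handling in the changes of Fos, Atf3, Jun and the other members was not tested.

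ChIP-seq peaks are described without a test, since each list came from 1 library. Scores are the authors' own, and can be read only within their own list, beside the share of it that scored higher, because lists of different length and depth cannot be ranked against each other. Distances run from the gene's probe, not its start, to the peak's centre. No annotation of build mm8 was used here, so promoters, exons and introns are not assigned. Factor peaks are 200 bases wide, FOXO1 peaks 76 and histone peaks 1000. Centres of histone peaks in B-lineage lists lie at least 2517 bases apart, so a list cannot show a mark peak closer than that to another. The control list of 807 peaks had none within 50 kb of a member (1.25% of 20757 genes with a position had one).

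E2A itself had a peak within 50 kb of 7 members in EBF-/- cells, all but Jun and Atf3, and of all 9 in RAG1-/- cells, where 30.9% and 48.2% of all genes had one. The order depends on the distance, since within 25 kb these were 7 and 6 members (20.0% and 33.6% of genes). Within 50 kb, peaks of EBF, the factor missing in the EBF-/- cells, lay near 2 members, Jun and Egr1 (11.0% of genes). FOXO1 peaks lay near 5, Fos, Fosb, Jun, Junb and Jund (12.6%). CTCF, a looping factor, was near all 9 (85.2%). Of the 16 EBF-/- E2A peaks near members, 9 were overlapped by a RAG1-/- E2A peak (56.2%, exact binomial 95% interval 29.9 to 80.2), against 44.7% of that whole list. Those 9 were 39.1% of the 23 RAG1-/- E2A peaks near members (interval 19.7 to 61.5), against 17.1% of the list. Intervals cover counting error only.

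Histone marks of active chromatin were near most members in both cell types. H3K4me2 and the promoter mark H3K4me3 were near all 9 members in EBF-/- cells (79.2% and 61.6% of genes) and in RAG1-/- cells (80.3% and 70.1%). H3K9/14 acetylation was near all 9 as well (69.5% and 69.3%). H3K4me1, found at enhancers, was near 7 members in EBF-/- cells (44.7%), with Jun and Egr1 lacking it, and near all 9 in RAG1-/- cells (74.1%). H3K27me3, a Polycomb mark, was near Fosb, Ier2 and Dusp1 in EBF-/- cells (9.76%) and near Fosb, Atf3 and Dusp1 in RAG1-/- cells (16.1%).

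**Figure D3:**
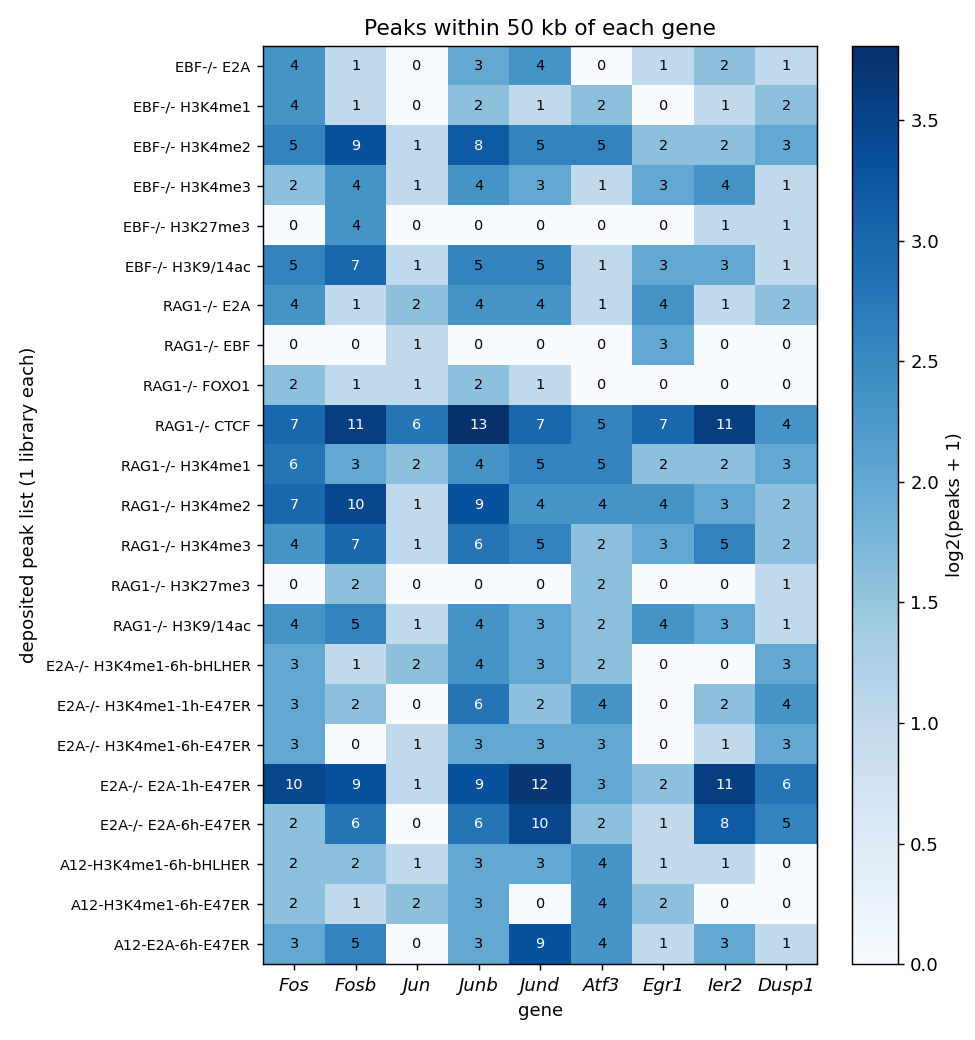
Number of peaks within 50 kb of each gene (columns) in the 23 lists other than the control without antibody (rows), with darker cells for more peaks on a log2 scale. Junb has 13 CTCF peaks, the highest count in the map, and Jun has 0 to 2 peaks in every list but CTCF.

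At Fos, 4 E2A peaks stood in EBF-/- cells and 4 in RAG1-/- cells, and no other array gene lay in the window. The nearest peak to the probe was at chr12:86362954-86363153 in EBF-/- cells (score 20, 19.1% of the list higher) and at chr12:86362971-86363170 in RAG1-/- cells (score 13, 49.4% higher), both 3.0 kb upstream of the probe. H3K4me3 peaks overlapped it in both cell types, with a score of 40 in EBF-/- cells (27.5% of the list higher) and 149 in RAG1-/- cells (51.7% higher). Acetylation overlapped it too, at a score of 231 in EBF-/- cells, among the highest of its list (1.5% higher), and 49 in RAG1-/- cells (48.6% higher). E2A, H3K4me3 and acetylation peaks were thus listed at this place also in RAG1-/- cells, whose Fos RNA was lower than in EBF-/- cells. Further upstream, a FOXO1 peak of RAG1-/- cells at chr12:86344307-86344382 was overlapped by E2A peaks of both cell types.

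Fosb had 1 E2A peak in each cell type at different places, 13.6 kb upstream in EBF-/- cells and 41.85 kb upstream in RAG1-/- cells. The latter overlapped a FOXO1 peak at chr7:18503585-18503660. H3K27me3 peaks lay around Fosb in both, 4 in EBF-/- cells, of which the nearest was 0.9 kb past the probe, and 2 in RAG1-/- cells. Ppm1n, Rtn2 and Vasp share that window, so peaks there cannot be assigned to 1 gene.

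Jun stood in a window with no other array gene and with few peaks. No E2A or H3K4me1 peak was listed there in EBF-/- cells. In RAG1-/- cells an E2A peak lay at chr4:94544099-94544298, 3.0 kb upstream (score 20, 25.9% higher), and a FOXO1 peak at chr4:94545266-94545341. At the far edge, 49.7 kb downstream, E2A (chr4:94491407-94491606, score 32, 11.2% higher) and EBF (chr4:94491361-94491560, score 15, 20.5% higher) overlapped, and H3K4me1 stood beside them with a score of 91, exceeded by 1.1% of its list. The H3K4me3 peak of Jun lay 2.27 kb upstream in RAG1-/- cells (score 292, 5.7% higher) and 3.56 kb upstream in EBF-/- cells (score 22, 74.1% higher).

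Junb and Jund lie on chromosome 8 and share their windows with 6 and 2 other array genes. At Junb, E2A lay 1.7 kb upstream in EBF-/- cells (chr8:87868700-87868899, score 29, 7.6% higher) and in RAG1-/- cells (score 22, 22.3% higher). A FOXO1 peak at chr8:87868936-87869011 (score 17, 6.0% higher) was 1.9 kb upstream. At Jund the FOXO1 peak chr8:73628987-73629062, 0.5 kb upstream, was exceeded by 2.9% of the FOXO1 list (score 21). E2A peaks 5.0 kb upstream of Jund were in both cell types and in all 3 lists of E47-ER binding.

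Atf3 had no E2A peak in EBF-/- cells and 1 in RAG1-/- cells, 27.3 kb upstream at chr1:192898558-192898757. Its H3K4me3 peak, upstream of the probe by 12.13 and 12.28 kb, scored 14 in EBF-/- cells (91.8% higher) and 171 in RAG1-/- cells (45.2% higher), and H3K4me2 there scored 172 and 237, ranks 8 and 14 of 27025 and 26549 peaks. RAG1-/- cells also held H3K27me3 28.97 kb downstream (score 17, 88.8% higher) and 46.35 kb upstream (score 25, 63.1% higher).

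Egr1 was the member with most EBF peaks, 3 in RAG1-/- cells. Those 21.5 kb upstream and 27.8 kb downstream were overlapped by E2A peaks, and the latter scored 22 (5.1% of the list higher). A single E2A site 13.0 kb upstream, chr18:34977627-34977826, recurred in all 5 E2A lists. It scored 74 with E47-ER at 1 h (0.2% of the list higher), 46 at 6 h (0.3%), 29 in A12 cells (3.5%), 26 in EBF-/- cells (10.2%) and 10 in RAG1-/- cells (72.0%). Etf1, Kdm3b and Reep2 lie in the same window.

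Ier2 had its strongest E2A site 40.4 kb upstream of the probe, at chr8:87590085-87590284 in RAG1-/- cells (score 64, 1.6% higher) and chr8:87590090-87590289 in EBF-/- cells (score 50, 1.7% higher). H3K4me1 peaks lay 38.8 and 39.54 kb upstream, with scores of 89 (1.3% higher) in RAG1-/- and 59 (0.1% higher) in EBF-/- cells. Cacna1a, Lyl1, Nacc1, Nfix and Trmt1 are in that window too. Dusp1 had an E2A peak 2.5 kb upstream in both, chr17:26235901-26236100 in EBF-/- cells (score 14, 44.9% higher) and chr17:26235911-26236110 in RAG1-/- cells (score 12, 55.2% higher), and a second one in RAG1-/- cells at chr17:26260382-26260581 (score 16, 36.2% higher).

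**Figure D4:**
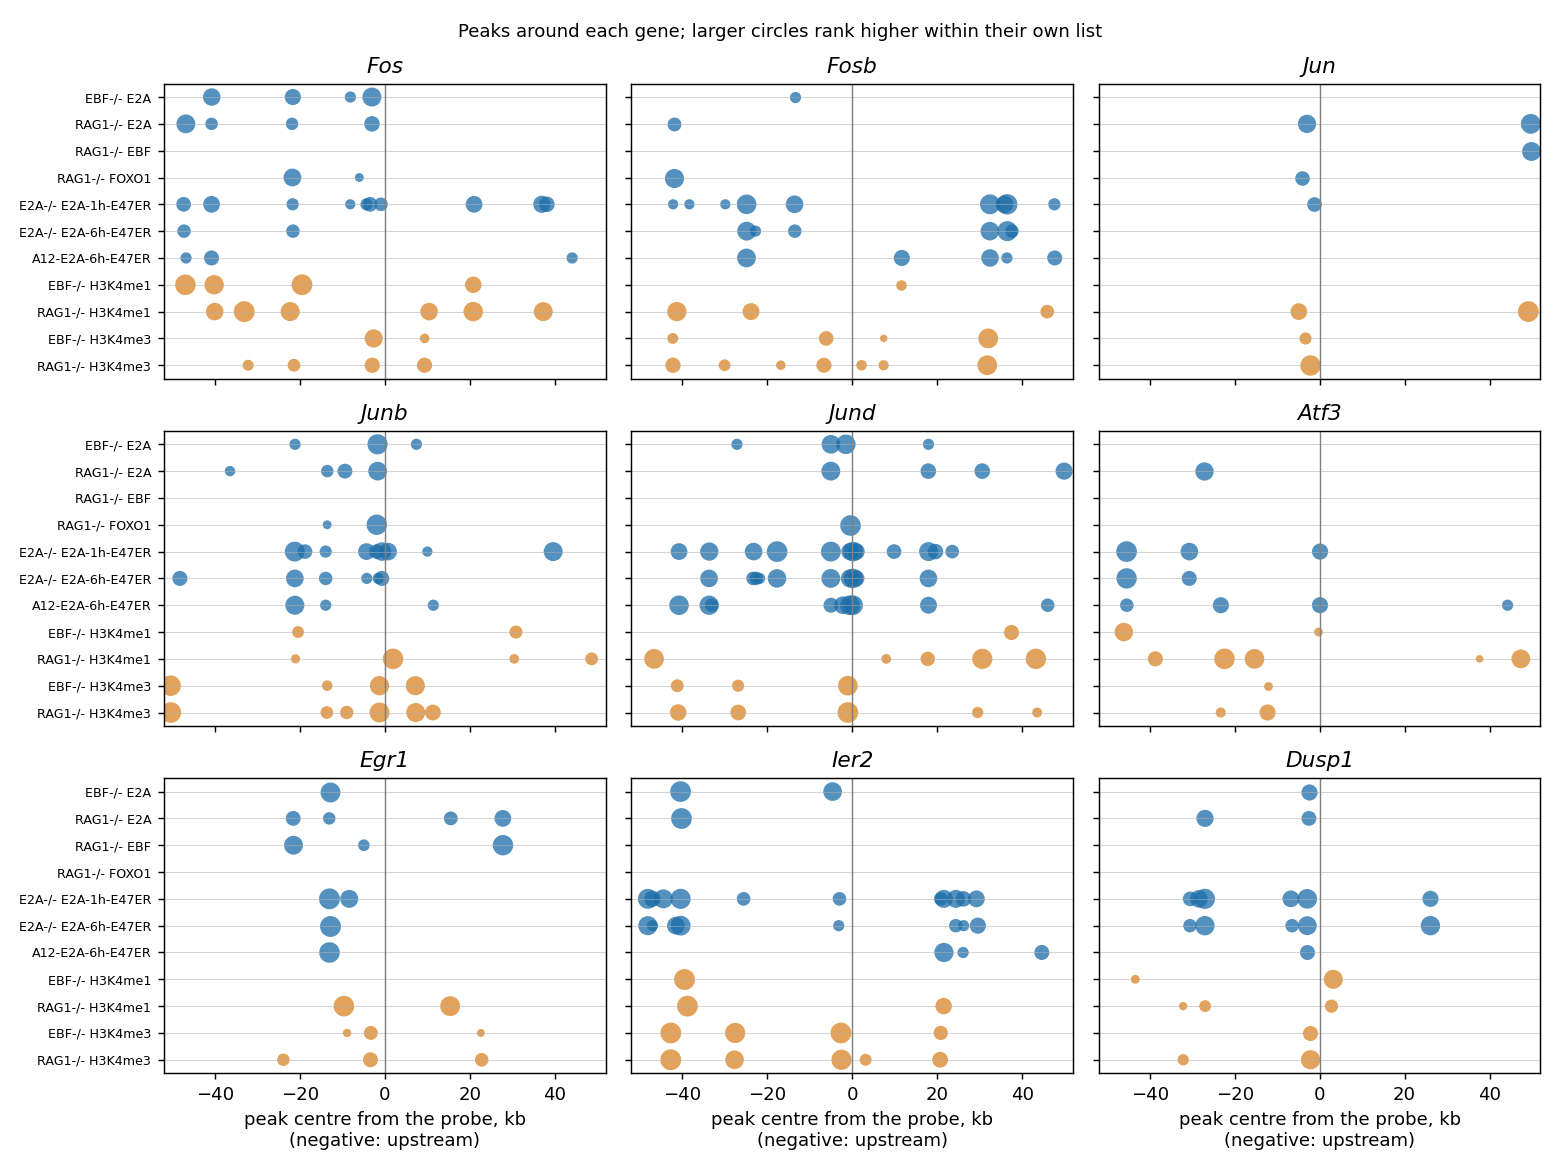
Centres of peaks relative to the probe of each gene in kb (x axis, negative upstream) in 11 lists (rows), blue for factors and orange for histone marks, with larger circles for peaks ranked higher within their own list. The Egr1 site at -13.0 kb appears in all 5 E2A rows, and the Jun panel is empty for E2A in EBF-/- cells.

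Restoring E2A as E47-ER in E2A-/- cells placed E2A peaks near all 9 members after 1 h and near 8, all but Jun, after 6 h (64.9% and 52.0% of all genes). Fos had 10 peaks at 1 h and 2 at 6 h, while Jund had 12 and 10, and the lists as a whole held 26792 and 15386 peaks. Of 63 peaks near members at 1 h, 31 were overlapped at 6 h (49.2%, interval 36.4 to 62.1), against 46.3% of the whole list, and these were 77.5% of the 40 peaks at 6 h (interval 61.5 to 89.2), against 80.7% of that list. Both shares near the members were thus close to those of all peaks. The peaks exceeded by least of their list at 1 h were those at Egr1 above, at Jund 17.7 kb upstream (score 47, 1.9% higher) and at Atf3 45.5 kb upstream (chr1:192916686-192916885, score 46, 2.1% higher). The Atf3 site scored 24 at 6 h (5.6% higher), and H3K4me1 peaks lay beside it with E47-ER at 1 h and 6 h (scores 44 and 31, 3.0% and 3.7% higher), with bHLH-ER at 6 h (score 35, 10.7% higher) and in EBF-/- cells (score 27, 24.5% higher). In A12 T cells E47-ER peaks were near 8 members, again all but Jun (54.9% of genes).

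H3K4me1 in the E2A-/- cells was near 7 members with bHLH-ER (65.8% of genes), 7 with E47-ER at 1 h (66.9%) and 7 with E47-ER at 6 h (55.2%). In A12 cells it was near 8 members with bHLH-ER (48.3%) and 6 with E47-ER (44.4%). Near Egr1 no H3K4me1 peak was listed in E2A-/- cells under any of the 3 conditions. Differences between the constructs went both ways. With bHLH-ER at 6 h, E47-ER at 1 h and E47-ER at 6 h in turn, Ier2 had 0, 2 and 1 peaks, Fosb 1, 2 and 0, and Jun 2, 0 and 1. In A12 cells Ier2 had 1 peak with bHLH-ER and 0 with E47-ER, Jund 3 and 0, and Fosb 2 and 1. Jun and Egr1 went the other way there, each with 1 peak with bHLH-ER and 2 with E47-ER. Each condition had 1 library, so these differences have no replicate check.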

How the data were processed

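Per the file headers, arrays were read with Agilent Feature Extraction 9.5.3.1, and the deposited intensity values are background-subtracted and dye-normalized. Each sample is 1 channel, and each group holds both dyes. Deposited values were turned to log2, equalized by quantiles between the 6 channels and averaged per probe. Probes well above background in both samples of a group were kept (22133), and the brightest stood for its gene. limma 3.58.1 (R 4.3.3) fitted group and dye with array as a random block, with Benjamini-Hochberg adjustment over 12593 genes at 0.05. HOMER is named in the submitters' processing notes, and the score per peak is the deposited one, in build mm8. A peak counted for a gene if its nearest edge lay within 50 kb of the probes. Sequencing depth per library was not stated, and the number of arrays limits the precision. Intervals are exact binomial ones (Clopper-Pearson). Other channels of 2 arrays were not used here. Alternatives are given in the closing section. The members, lists and rules were chosen with earlier results of these data known. Genes named outside the members are up to 4 per list and comparison with the largest called change, and the 4 nearest to Fos.

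Samples were not paired by replicate number in the main fit. E2A-/- replicate 1 and RAG1-/- replicate 1 shared an array, as did E2A-/- replicate 2 and EBF-/- replicate 1. Within each group the replicates differ in array and dye. The correlations that follow therefore cannot tell a pairing of samples from a shared array or dye. Deviations of same-numbered samples correlated across genes with r = 0.17 (E2A-/- with RAG1-/-), -0.40 (E2A-/- with EBF-/-) and 0.01 (RAG1-/- with EBF-/-).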

Additional observations from a re-analysis of the deposited data

How the results depend on the processing

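With 2 samples per group and 2 residual degrees of freedom, leaving out 1 sample moved most counts. In EBF-/- against E2A-/- cells, members called higher ranged from 0 to 2 and lower from 1 to 5 (all genes 214 to 2754 and 220 to 2564). In RAG1-/- against EBF-/- cells they ranged from 1 to 2 and 3 to 6 (all genes 1056 to 2806 and 1237 to 3206), and in RAG1-/- against E2A-/- cells from 0 to 0 and 4 to 9 (all genes 1672 to 3089 and 1648 to 3351). In EBF-/- against E2A-/- cells the 1 member called higher became 0 with 75th percentile scaling, with normexp and loess, without the filter on dim probes, with every kept probe tested and without the dye term. Without that filter 1 member was lower, and all genes gave 1058 higher and 897 lower. A replicate block gave 2 members higher in EBF-/- against E2A-/- cells (all genes 2674 and 2479), 2 higher in RAG1-/- against EBF-/- cells (all genes 3367 against 2678) and 9 lower in RAG1-/- against E2A-/- cells (3652 against 2917). With the EBF-/- numbers crossed, a choice made after seeing the data, 0 members were higher in EBF-/- against E2A-/- cells. Vpreb3 changed by -3.65 in EBF-/- against E2A-/- cells and by 1.76 (adjusted p = 0.0189) without E2A-/- replicate 1, with a range of -8.97 to 1.76 over single samples left out. The cause was not tested in any of these. Within 25 kb, peaks of EBF-/- H3K27me3, RAG1-/- EBF and RAG1-/- H3K27me3 were near 1 member each (5.30%, 6.46% and 9.34% of all genes), H3K4me1 with E47-ER at 6 h in E2A-/- cells near 4 (39.3%) and with bHLH-ER in A12 cells near 5 (31.6%). Within 100 kb RAG1-/- EBF peaks were near 6 (18.8%). At or above the median score of each list, EBF-/- H3K4me1 was near 4 (28.6%), EBF-/- H3K4me3 near 5 (43.7%) and RAG1-/- H3K27me3 near 1 (9.32%).
The overlap shares of E2A peaks stayed within their intervals when at least 100 bases had to be shared or within 25 kb, both chosen after seeing the data, at 34.8% and 58.3% for RAG1-/- peaks found in EBF-/- cells.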
